A study of Homo sapiens with 16 samples.

Results

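A549 is an established human cell line grown from a lung adenocarcinoma, here measured as 2 of the 16 arrays of a series on 8 lung cancer lines. Its arrays were found by their titles, A549 3D and A549 2D, and the other 14 arrays came from A427, H1437, H1703, H23, H358, H460 and H661, with 1 array per line and culture. For 3D culture the cells sat on a thin Matrigel layer beneath medium with 2% Matrigel dissolved in it, and for 2D culture they grew on plain culture plastic at similar density and in similar medium. No drug, genotype change or other agent was applied, and every culture was untreated apart from the Matrigel. Matrigel is a basement membrane extract rich in laminin and collagen IV, made from a mouse tumour. As a model, A549 is a single line from a single tumour, and neither culture was repeated, so no difference between the A549 arrays carries a replicate error of its own. Each value is a log2 ratio of a probe set to that probe set's own reference over the series, so a level is read only against the same gene on other arrays.

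A549 is known as a line with mutant KEAP1, in which the transcription factor NRF2 stays active and drives aldo-keto reductases, aldehyde dehydrogenases and glutathione genes, and with a deleted CDKN2A locus. It was long used as a model of the alveolar type II cell, the surfactant-making cell of the lung. Lung adenocarcinomas that lack the lineage factor NKX2-1 are known to express genes of stomach, gut and mucus-making epithelium. Acute-phase genes such as the fibrinogen chains are liver genes that the cytokine IL-6 induces through STAT3 and C/EBP factors, with NF-kB acting on others, among them LCN2. The mutations themselves were not measured here.

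The comparisons below are of 2 kinds. A549 was first set against the other 7 lines by the mean of its 2 arrays, with the spread of the 7 line means as the error (limma, 1 line against 7). Its 3D minus 2D difference was then set beside the same difference in each other line, and limma again took its error from the 7 other lines, so that A549 is assumed to vary as they do. Each array holds a whole culture, so more cells making a transcript and more transcript per cell cannot be told apart. A gene was called at a Benjamini-Hochberg adjusted p under 0.05. Genes whose probe set has a median under its reference are dim in most arrays: they entered the first comparison, and in the second they were fitted apart, with all 19752 genes.

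A549 carried most of its known markers. AKR1B10, an aldo-keto reductase, had log2 ratios of 11.67 in A549 3D and 11.23 in A549 2D, and the other 14 arrays ran from -0.87 to 11.63 with a median of -0.12. AKR1C3 had 9.12 and 8.72 in A549 3D and 2D, against -3.57 to 9.42 (median -2.25) on the other arrays. The arrays as high as A549 for these genes were those of H460 and H1437, while the other 5 lines lay far below. CDKN2A, which encodes the cell cycle inhibitor p16, lay at -2.88 in A549 3D and -2.93 in A549 2D, against -2.94 to 5.22 elsewhere, and its neighbour CDKN2B at -1.51 and -1.53, under every other array (-1.49 to 6.35). H460, H1437 and A427 were as low as A549 for CDKN2A, and the other 4 lines stood above them. MTAP, which lies next to CDKN2A and makes a methionine salvage enzyme, parted by probe set. Its representative gave -0.05 and -0.06 in A549 3D and 2D, while 3 others put A549 lower than the other lines by 3.12, 3.18 and 4.85 and 1 put it 1.58 higher. CPS1, a mitochondrial enzyme of ammonia handling listed as an A549 marker, did not stand out, with -0.05 in A549 3D and -2.65 in A549 2D against a median of 0.52 (-6.55 to 4.92) elsewhere.

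**Figure D1:**
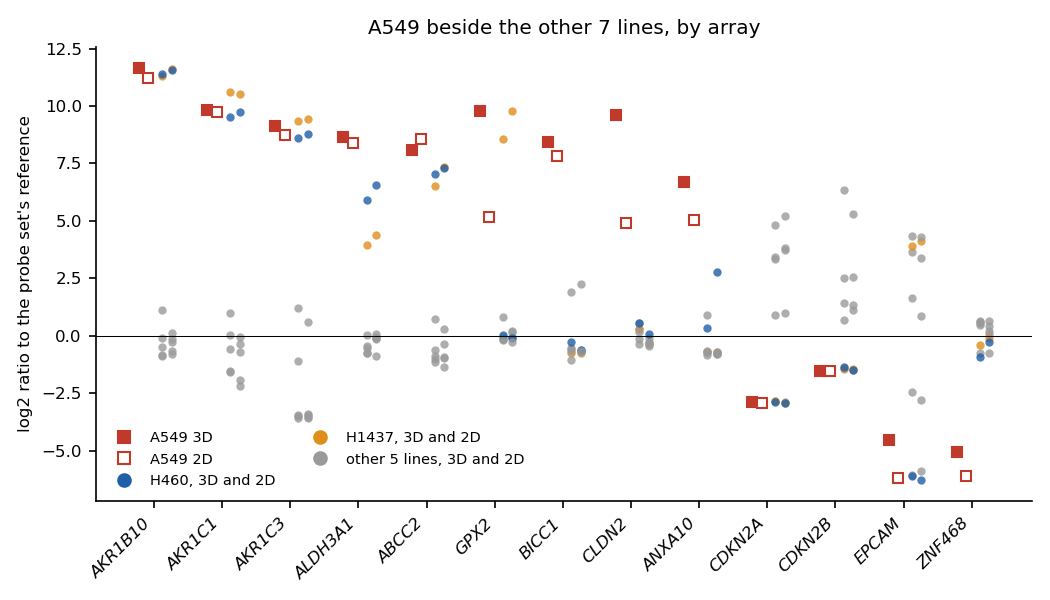
Log2 ratio of 13 genes (y axis) on each array, with A549 3D as filled and A549 2D as open squares, H460 and H1437 in colour and the other 5 lines in grey, where in each pair of columns 3D is left of 2D. The aldo-keto reductases are as high in H460 and H1437 as in A549, BICC1 and CLDN2 stand apart in A549, and CDKN2A, CDKN2B and EPCAM are low in A549 and in some other lines.

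Of the NRF2 target list, all 28 members with a probe set had a higher A549 mean than the mean of the other 7 lines, 18 of them by at least 2-fold, and the median difference was 1.16, against -0.05 over all genes. None was called. The median of the list in each line was 1.08 in A549, 1.42 in H460, 1.32 in H1437 and 0.18 in H1703, and it lay between -1.17 and -0.59 in the other 4 lines. High values were thus shared by A549, H460 and H1437. AKR1C1 and AKR1C2, which reduce steroids and aldehydes, had 9.85 and 9.92 in A549 3D and 9.76 and 9.80 in A549 2D, under maxima of 10.62 and 10.81 in the other arrays. These near-identical paralogs may share probes, so their values cannot be told fully apart.

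Of the detoxification genes named here, 3 set A549 above every other array. Both A549 arrays lay above all others for 2 of the 28 NRF2 targets and for 2.73% of all genes. ALDH3A1, an aldehyde dehydrogenase, had 8.66 in A549 3D and 8.38 in A549 2D, with the highest other array at 6.55 (H460), and the drug export pump ABCC2 had 8.10 and 8.58 with the highest other array at 7.34. Their differences from the other lines, 7.29 ± 3.33 (SE) for ALDH3A1 and 6.77 ± 4.28 (SE) for ABCC2, were not called, with the other lines themselves spanning a wide range. ALDH1A1, a retinal dehydrogenase, had 3.57 and 3.63 in A549 3D and 2D, just under the highest other array (3.82, A427). FTL, the ferritin light chain and the last of the 3, lay only slightly above all others, at 0.46 and 0.55 against at most 0.36. The pentose phosphate enzyme PGD had 2.31 in A549 3D and 2.43 in A549 2D, close to the highest other array (2.36), and the malic enzyme ME1 had 3.20 and 2.53, under the highest other array (3.60). Between its cultures the list moved little in A549, with a median 3D minus 2D difference of 0.06, which was -0.24 after quantile normalisation.

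Across all genes, 105 of 19752 (0.532%) were called higher in A549 than in the other 7 lines and 1 (0.00506%) lower, with 615 and 161 at an unadjusted p under 0.05. Both A549 arrays lay above all 14 others for 539 genes (2.73%) and below them for 431 (2.18%), and 71 of the 105 were among the first. Of the 105 genes, 90 were dim over the series, and with dim genes left out 0 were called. In 61 of the 105, A549 3D was at least 2-fold above A549 2D, so the mean over both cultures rests in part on the Matrigel array.

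The highest of the genes that were high in both cultures was BICC1, an RNA-binding protein best known from kidney. It had 8.46 in A549 3D and 7.81 in A549 2D, against -1.05 to 2.27 (median -0.64) on the other arrays, a difference of 8.39 ± 1.15 (SE; adjusted p = 0.0258). CLDN2, a claudin that forms cation pores in tight junctions, had 9.61 and 4.92 in A549 3D and 2D, against -0.42 to 0.56 (median -0.11), a difference of 7.29 ± 0.68 (SE; adjusted p = 0.00332). Neither gene overlapped between A549 and the other arrays, and CLDN2 was not called with dim genes left out (adjusted p = 0.0649). ANXA10, an annexin of gastric epithelium, had 6.71 and 5.05 against -0.85 to 2.77 (median -0.71; adjusted p = 0.0361), with the highest other array from H460 2D. PADI3, which converts arginine in proteins to citrulline, had 4.36 and 5.20 against at most 0.04 elsewhere (adjusted p = 9.65e-05), and AK5, an adenylate kinase, 3.70 and 4.43 against at most -0.14 (adjusted p = 3.16e-05). CCBE1, a secreted protein of lymphatic growth, had 5.26 and 5.43 against at most 1.86 (adjusted p = 0.0331), and the calcium-binding S100A3 had 5.31 and 4.14 against at most 0.84 (adjusted p = 0.0312). The A549 cultures lay within 2-fold of each other for PADI3, AK5 and CCBE1, while S100A3 was higher in 3D by 1.18 (log2; other lines -0.55 to 0.86, not called). BICC1, ANXA10, PADI3, AK5, CCBE1 and TNFAIP6 are dim over the series. TNFAIP6, a hyaluronan-binding protein, was high in both cultures too but more so in 3D, at 7.33 and 2.94, against -0.83 to 0.14 (adjusted p = 1.89e-05). The only gene called lower was ZNF468, a zinc finger gene, with -5.04 and -6.11 in A549 3D and 2D against -0.91 to 0.64 (median 0.14), a difference of -5.61 ± 0.53 (SE; adjusted p = 0.00376). It was no longer called with ratios under -3 set to -3 (adjusted p = 0.0895) or with dim genes left out (adjusted p = 0.0857).

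Epithelial junction genes were low in A549 and in several other lines. The median of the list in each line was -0.59 in A549, -0.57 in H460, -0.48 in H1703, -0.42 in H23 and -0.31 in H661, and it was 0.70 in A427, 1.58 in H358 and 2.03 in H1437. Of 19 members, 9 had an A549 mean at least 2-fold below the mean of the other lines, as did 6.91% of all genes. Of the same members 1, CLDN2, was called higher, as were 0.532% of all genes. The median difference was -0.78, and -0.34 with only the probe sets that have no s or x suffix. EPCAM, an epithelial adhesion molecule, had -4.55 in A549 3D and -6.21 in A549 2D, against -6.29 to 4.37 (median 1.25), with H460 and H1703 as low. CLDN3, a sealing claudin, had -2.07 and -2.45, below all other arrays (lowest -1.98) on this probe set but not on its other, where A549 3D had -4.04 and the lowest other array -4.59, and the tight junction protein CGN had -3.78 and -2.97 against a median of 0.14. The representative probe set of CDH1, E-cadherin, was dim and put A549 at -1.81 relative to the other lines. Another, not dim, read 2.17 in A549 3D and -0.22 in A549 2D and put A549 0.54 higher than the other lines.

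Among the mesenchymal genes, 11 of 17 members had an A549 mean at least 2-fold above that of the other lines, as did 7.01% of all genes, and none was called. Another 3 of the 17 were at least 2-fold below it, as were 6.91% of all genes. The median difference was 1.84, and 1.09 with only the probe sets that have no s or x suffix. The 12 fibroblast markers, a list of their own, had a median difference of -0.76. Both A549 arrays lay above every other array for 4 of the 17, as they did for 2.73% of all genes. AXL, a receptor tyrosine kinase, had 5.31 and 5.04 in A549 3D and 2D against at most 4.17, and the gelatinase MMP2 had 4.45 and 4.92 against at most 1.74. Smooth muscle actin, ACTA2, had 3.37 and 4.42 against at most 1.59, and the actin-binding TAGLN 3.64 and 2.43 against at most 1.50, although another TAGLN probe set put A549 at -0.18 relative to the other lines. The other ACTA2 probe sets, both dim, put A549 at -0.075 and -0.016. The representative of MMP2 is dim, and the other MMP2 probe sets put A549 at 0.07 and 0.06. The basement membrane chains COL4A1 (3.71 and 3.73) and COL4A2 (3.80 and 3.73) also exceeded all other arrays, which reached 2.19 and 2.54. KRT7, a keratin of simple epithelium, was high at 6.57 and 7.41, although its 3 other probe sets, all dim, put A549 at -0.08, -0.04 and 0.31 relative to the other lines. Also high was FOXA2, a factor of endodermal tissues, at 5.01 and 4.70, and for both genes another array was higher (7.75 and 5.77). NKX2-1, the lung lineage factor, lay at -0.47 and -1.03 against a median of 0.74.

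Taking all genes that were not dim, the line most like A549 in its mean profile was H460, with Pearson's r of 0.253 across genes, then H1437 at 0.152, and the other 5 lines lay between -0.168 and -0.00835. These ratios are centred within the series and genes are not independent, so the values are descriptions. The A549 3D and 2D arrays correlated at 0.792, within the range of the other lines' pairs (0.783 to 0.924). A549 had the fewest genes with both arrays above all others, 539, against 729 (H460) to 1162 (H1437) in the other lines. Genes with both arrays below all others numbered 431 in A549, against 236 (H1703) to 3732 (H358).

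In Matrigel, A549 held a set of genes far above their level on plastic, and on the deposited scale no gene that was not dim was lower by as much. Of 13779 genes not dim, 599 (4.35%) were at least 2-fold higher in A549 3D than in 2D and 300 (2.18%) at least 2-fold lower. At 8-fold or more, 58 genes were higher and 0 were lower. With the arrays quantile normalised, 581 were higher and 622 lower at 2-fold, and 42 higher and 4 lower at 8-fold, so the larger number of higher genes at 2-fold depends on the scale between arrays. The other lines had 0 to 17 genes at least 8-fold higher, with H358 the highest, and 0 to 8 lower. The median size of the difference, 0.251, was not unusual, with the other lines between 0.183 and 0.311. Of the 58 genes, 47 had an A549 2D value within the range of the other lines' 2D arrays, and 28 were 2-fold higher in no other line. Of the 58 genes, 2 in H1703 and up to 16 in H358 were at least 2-fold higher in 3D there.

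The test of A549 against the other lines' differences called 33 genes (0.239%) higher and 0 (0%) lower, with 541 and 393 at an unadjusted p under 0.05. Without A427, the line that moved least, 18 were called higher, and without H1703 20. With all 19752 genes in the fit, 197 (0.997%) were higher and 37 (0.187%) lower. Many genes at background in A549 2D enter only there, and for these the size of the fold depends on where the background lies. Where the other lines are near background too, the error behind the p-value comes from the narrow spread of those low values.

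**Figure D2:**
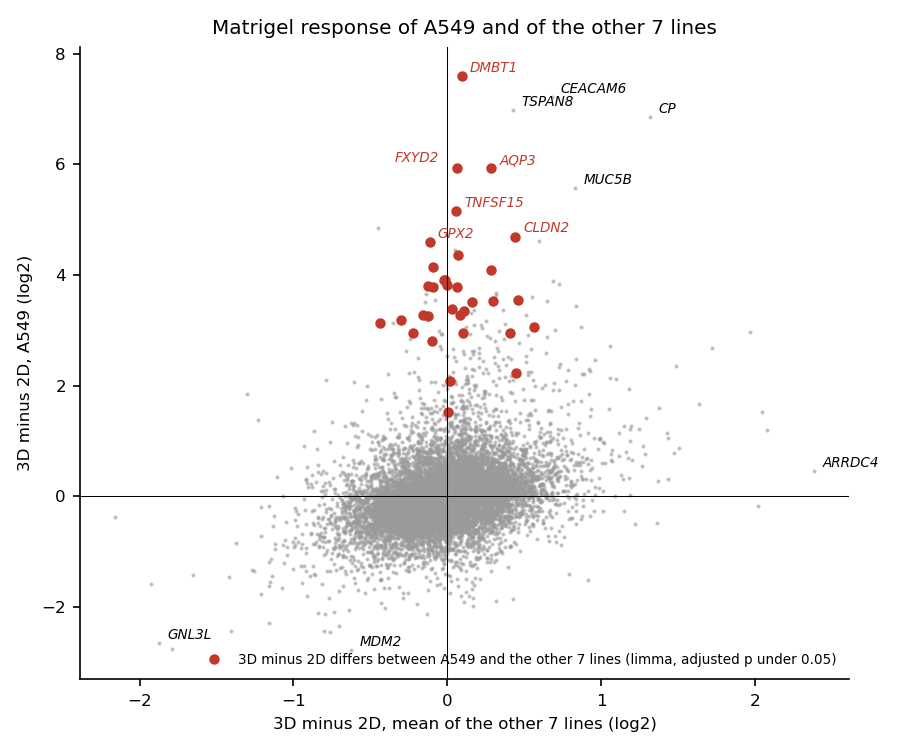
The 3D minus 2D difference of 13779 genes (log2) in A549 on the y axis against the mean of the other 7 lines on the x axis, with the 33 genes whose difference was called in red. The red points lie between about 1.5 and 7.6 on the y axis and near 0 on the x axis, and the lowest gene in A549, the ubiquitin ligase MDM2, lies at -2.79.

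The gene with the highest difference among those not dim was DMBT1, a secreted mucosal protein that binds microbes. It had 7.52 in A549 3D and -0.07 in A549 2D, a 194-fold difference (log2 7.60), while the other 14 arrays lay between -0.40 and 0.38 and the other lines' differences between -0.26 and 0.38 (adjusted p = 1.5e-05). FXYD2, a regulator of the sodium pump, had 6.90 and 0.98, a difference of 5.92 (other lines -0.16 to 0.28; adjusted p = 3.2e-05). AQP3, a water and glycerol channel, had 6.04 and 0.11 in A549 3D and 2D, with the other lines' differences from -1.10 to 1.02 (adjusted p = 0.0169), and its other probe sets gave smaller differences of 1.89 and 1.46. DMBT1 and FXYD2 thus stayed near their reference in all 7 other lines in both cultures, whereas AQP3 was high in some of them whatever the culture (up to 11.12). The other FXYD2 probe set, which is dim, differed by only 0.09 in A549.

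TNFSF15, a TNF family cytokine, rose by 5.16 (7.14 in A549 3D and 1.98 in 2D, adjusted p = 0.0322), with 1.54 on its other, dim probe set, and CLDN2 by 4.69 (adjusted p = 0.00265). GPX2, the glutathione peroxidase of gut epithelium and an NRF2 target, had 9.77 in A549 3D and 5.18 in A549 2D, a difference of 4.59 against -1.25 to 0.61 elsewhere (adjusted p = 0.0269), and another probe set gave 1.92. H1437 was also high in GPX2, at 8.55 in 3D and 9.80 in 2D. PRSS3, a trypsinogen (3.82), the amino acid transporters SLC7A7 (4.09) and SLC7A2 (3.52), and the cystatin CST4 (2.95) were called as well, although the other probe sets of SLC7A2, both dim, gave 0.02 and 0.00. Also called were RNF43, a ubiquitin ligase that restrains Wnt receptors (3.18), the ion channel TRPA1 (3.35) and F3, tissue factor (3.26). The other TRPA1 probe set, which is dim, gave 0.47. At least 1 other array was above A549 3D for SLC7A2 (6.81) and for F3 (4.77).

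Other genes of the same size were shared with another line and were not called. CEACAM6, a mucosal adhesion protein, had 7.91 in A549 3D and 0.69 in A549 2D (7.21), and H358 had 4.97 of the same difference (adjusted p = 0.277). CP, the copper-carrying acute-phase protein ceruloplasmin, had 7.71 and 0.85 (6.86), with H460 at 5.06 and H358 at 3.20 (adjusted p = 0.438). MUC5B, a gel-forming airway mucin, had 5.79 and 0.23 (5.57) with H358 at 3.01 (adjusted p = 0.244), and TSPAN8, a tetraspanin of gut epithelium, had 2.95 and -4.02 (6.97; adjusted p = 0.059, and 0.0341 with all genes fitted). The difference in these genes was therefore largest in A549 among the 8 lines without being particular to it.

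**Figure D3:**
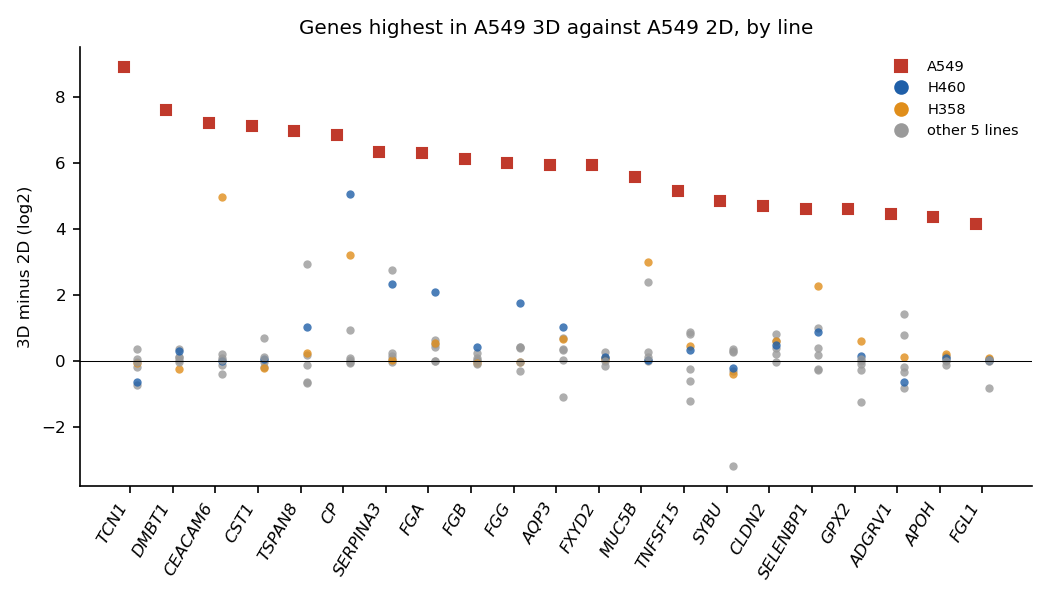
The 3D minus 2D difference (log2, y axis) of the genes highest in A549 3D against A549 2D, with A549 as squares and each other line as a dot, H460 and H358 in colour. The dots lie near 0 for most genes, and the highest are CEACAM6 in H358 at 4.97 and CP in H460 at 5.06.

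Coagulation, complement and acute-phase genes formed the list with the largest shift. Of 23 members with a probe set, 16 were at least 2-fold higher in A549 3D and 0 lower, with a median difference of 3.06 in A549, against 819 of 19752 genes (4.15%) at least 2-fold higher, 332 (1.68%) lower and a median of 0.02 over all genes. The other lines had 0 to 6 members at least 2-fold higher. In the fit over all genes, 8 of the 23 were called higher in A549 than in the other lines, where 0.997% of all genes were, and in the fit without dim genes 2 of 9 were, against 0.239%. With only the probe sets that have no s or x suffix, 19 members remained, 9 of them at least 2-fold higher, and the median was 0.66.

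The fibrinogen chains moved together. FGB had 7.94 in A549 3D and 1.82 in A549 2D, a difference of 6.12 (other lines -0.08 to 0.42; adjusted p = 6.01e-05 with all genes fitted), and its other probe set gave 5.88. FGA had 6.74 and 0.43 (6.30; adjusted p = 0.00624) and FGG 8.53 and 2.54 (5.99; adjusted p = 0.00429). H460 had differences of 2.08 in FGA and 1.77 in FGG, and H1437 held all 3 chains high without regard to culture, with its FGB at 10.28 in 3D and 10.24 in 2D. A549 in Matrigel was thus between the low lines and H1437.

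CFI, the complement factor I protease, had 4.45 in A549 3D and 0.00 in A549 2D (adjusted p = 0.000102). APOH, a phospholipid-binding plasma protein, had 6.33 and 1.97 (4.36; adjusted p = 0.000298) and FGL1, a fibrinogen-like liver protein, 6.38 and 2.23 (4.15; adjusted p = 0.00265). The differences of the other lines stayed within -0.13 to 0.22 for APOH and -0.83 to 0.08 for FGL1. At least 1 other array was above A549 3D for CFI (5.84). The other APOH probe set, which is dim, differed by 0.02 in A549. The protease inhibitor SERPINA5 rose by 2.56 (adjusted p = 0.000142). SERPINA3, antichymotrypsin, differed by 6.33 but was not called (adjusted p = 0.0628), while SERPINA1, antitrypsin, at 3.64 was called with all genes fitted (adjusted p = 0.0407) and not without the dim genes (adjusted p = 0.0769), and another of its probe sets showed 0.01. Complement C3 (2.48) and C5 (2.67) were higher in A549 3D and not called.

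LCN2, an iron-binding protein of acute inflammation, had 6.10 in A549 3D and 2.20 in A549 2D (3.91; adjusted p = 0.0260). Its promoter is printed with those of FGA and FGB, the chains that parted A549 from most lines, and that of GPX2, so that the motifs of the factors named above can be seen. They are RefSeq sequences of the GRCh38.p14 build, each 250 bases before to 50 after the gene's start: chr4:154562730-154563029 on the plus strand, chr4:154590693-154590992 on the minus strand, chr9:128149203-128149502 on the plus strand and chr14:64942696-64942995 on the minus strand. Capitals mark the C/EBP letters TTGCNNAA, the STAT letters TTCNNNGAA, the antioxidant response element letters TGACNNNGC that NRF2 binds, and the NF-kB motif, each searched on both strands.
FGB: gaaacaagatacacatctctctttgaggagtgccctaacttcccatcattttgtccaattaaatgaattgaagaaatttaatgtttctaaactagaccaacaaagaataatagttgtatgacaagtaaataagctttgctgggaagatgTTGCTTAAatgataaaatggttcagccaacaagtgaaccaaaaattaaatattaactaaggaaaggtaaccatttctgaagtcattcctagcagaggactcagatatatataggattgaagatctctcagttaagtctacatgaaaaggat
FGA: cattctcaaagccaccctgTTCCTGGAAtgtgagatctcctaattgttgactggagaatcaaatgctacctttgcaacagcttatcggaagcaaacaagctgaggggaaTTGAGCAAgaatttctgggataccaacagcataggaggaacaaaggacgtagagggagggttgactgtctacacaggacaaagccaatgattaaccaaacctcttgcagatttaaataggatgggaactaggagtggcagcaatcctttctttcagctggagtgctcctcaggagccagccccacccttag
LCN2: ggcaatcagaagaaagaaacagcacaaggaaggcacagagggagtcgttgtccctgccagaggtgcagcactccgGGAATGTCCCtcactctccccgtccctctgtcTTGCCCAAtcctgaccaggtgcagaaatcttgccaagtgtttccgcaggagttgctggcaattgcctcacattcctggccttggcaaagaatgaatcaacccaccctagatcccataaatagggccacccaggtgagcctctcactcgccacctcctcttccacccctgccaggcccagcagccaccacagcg
GPX2: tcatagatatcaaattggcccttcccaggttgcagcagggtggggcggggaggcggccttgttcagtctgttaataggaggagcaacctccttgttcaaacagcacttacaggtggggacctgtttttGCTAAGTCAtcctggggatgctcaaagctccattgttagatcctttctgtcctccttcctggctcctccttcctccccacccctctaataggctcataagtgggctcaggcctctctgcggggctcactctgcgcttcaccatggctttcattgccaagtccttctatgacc

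The C/EBP match began at -101 in FGB, -141 in FGA and -143 in LCN2, the STAT match at -231 in FGA, the NF-kB match at -175 in LCN2 and the antioxidant response element at -122 in GPX2, and none of these matches overlap. Of 35116 RefSeq promoters of the same length, 10.5% held the C/EBP letters, 7.66% the STAT letters, 5.91% the NF-kB motif and 13.3% the antioxidant response element. Of the 21 genes highest in A549 3D, 14 had a promoter in the table and 5 of them held the C/EBP letters, 2 the STAT letters, 1 the NF-kB motif and 4 the antioxidant response element. In the NRF2 target list, 22 genes had a promoter and 8 of them held the antioxidant response element. In both gene sets a gene was counted if any of its promoters matched. The shares over RefSeq are per promoter, so these counts of genes cannot be set directly against them. A match is a run of letters only and does not show binding.

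Some genes of gut, stomach and mucus-making epithelium were high in A549 3D as well. Of 19 members of the endodermal list, 11 were at least 2-fold higher in A549 3D and 0 lower (other lines 0 to 2 higher). The median was 1.78 (0.92 with the mean of all probe sets of a gene). In the fit over all genes, which called 0.997% of all genes higher, 6 were called. In the fit without dim genes, which called 0.239% higher, 1 of the 12 that were not dim was called. Of 13 CEACAM and mucosal surface genes, 3 were at least 2-fold higher and 1 lower, with 8 higher in H358, and over the 7 that were not dim the median was 0.32 in A549 and 1.72 in H358. CDH17, a cadherin of intestine, had 5.79 in A549 3D and 0.30 in A549 2D, with all other arrays from -0.84 to -0.47 (difference 5.50; adjusted p = 4.63e-07). MUC13, a membrane mucin, had 4.92 and -0.05 (4.97; adjusted p = 6.64e-06), and TFF1, a trefoil peptide of gastric mucus, 3.72 and -0.05 (3.78; adjusted p = 0.00860) against 0.00 to 0.12 in the other lines. The differences of CDH17, MUC13 and TFF1 rest on the A549 3D array alone, since A549 2D lay near the low arrays of the other lines. TFF1 was not dim, and at least 1 other array (11.09) was far above A549 3D. The range of 0.00 to 0.12 given for TFF1 is of 3D minus 2D differences.

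Of the factors that act in such tissues, FOXA3 had 1.56 in A549 3D and -1.10 in A549 2D (2.66; adjusted p = 0.0274). GATA6 differed by 2.63 (adjusted p = 0.117, another probe set at -0.03) and FOXA1 by 1.78 (adjusted p = 0.482). AGR2, a disulfide isomerase that mucins need, differed by 3.60 (adjusted p = 0.208). MUC5AC, a gel-forming mucin, had 4.55 and 0.40 (4.14; adjusted p = 0.0167), with other probe sets at 3.49, 0.76 and 0.15. Arrays of other lines were above A549 3D for FOXA3 (up to 2.92), GATA6 (3.72), FOXA1 (6.20), AGR2 (6.16) and MUC5AC (7.95). KRT20, a keratin of gut epithelium, had 1.91 and -0.15 (2.06; adjusted p = 0.00740).

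Other genes that are dim over the series were high in A549 3D as well. Of the genes named above, FGA, FGB, FGG, CFI, SERPINA3, SERPINA5, CDH17, MUC13, MUC5AC, FOXA3 and KRT20 are dim too. So are IL33, CXCL5, CCL2, S100A8, S100A9, FOXF1 and BMPER, named below. For the 3D minus 2D difference of dim genes, adjusted p-values are of the fit over all genes. TCN1, a vitamin B12 carrier of saliva and gastric juice, had 9.14 in A549 3D and 0.23 in A549 2D, a difference of 8.91, with the other lines from -0.74 to 0.36 (adjusted p = 9.75e-06). CST1, a salivary cystatin, had 6.57 and -0.55 (7.12; adjusted p = 5.60e-06). ANXA13, an annexin of intestine and kidney, had 6.37 and 0.71 (5.66; adjusted p = 5.70e-08), ADH1C, an alcohol dehydrogenase, 4.74 and -0.33 (5.07; adjusted p = 6.64e-06) and GSTA1, a glutathione transferase, 3.39 and -0.55 (3.94; adjusted p = 0.000317). No other array reached A549 3D for CST1, ANXA13 or ADH1C, whereas at least 1 other array was higher for GSTA1 (6.84). The other GSTA1 probe set, which is not dim, differed by 0.56 in A549.

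Inflammatory genes followed in part. Of 29 chemokines and cytokines, 14 were at least 2-fold higher in A549 3D and 0 lower (other lines 0 to 5 higher), with a median of 0.90. With all genes fitted 2 were called, where 0.997% of all genes were called higher. After quantile normalisation 9 were at least 2-fold higher and 1 lower, with a median of 0.26. IL33, an epithelial alarm cytokine, had 3.98 in A549 3D and -0.77 in A549 2D, against -0.88 to -0.41 on the other arrays (4.75; adjusted p = 8.84e-07). IL1B had 2.00 and -0.09 (2.09; adjusted p = 0.0385), while CXCL5, a neutrophil attractant, had 10.12 and 6.99 (3.13; adjusted p = 0.0943). CCL20, CXCL8 and CCL2 differed by 3.84, 2.99 and 3.52 and were not called, with other lines over a wide range, up to 3.38 for CCL20. At least 1 other array was above A549 3D for IL1B (2.48).

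The calcium-binding alarmins S100A9 (4.30 in A549 3D and -0.71 in 2D; adjusted p = 0.00111) and S100A8 (2.77 and -1.09; adjusted p = 0.000287) rose too. Another S100A8 probe set differed by 0.04, and the difference from the other lines turned to -0.05 with only the probe sets that have no s or x suffix. At least 1 other array was above A549 3D for S100A9 (10.17) and for S100A8 (5.62). Among receptors of bacterial products, CD14 differed by 3.52, LY96 by 2.37 and the adaptor MYD88 by 2.28, none called. Of 23 NF-kB pathway and feedback genes, 6 were at least 2-fold higher and 0 lower (other lines 0 to 4 higher), and none was called. PSMB8, an immunoproteasome subunit, had -1.59 and -5.40 (3.81; adjusted p = 0.00393) and stayed under the median of the other arrays (0.28). HLA-DMB, a class II peptide exchange factor, had 4.20 and 0.30 (3.90; adjusted p = 0.00242).

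Some keratins, junction genes and genes of contact with the matrix were also higher in A549 3D. Of 11 keratins 4 were at least 2-fold higher, as were 4.15% of all genes, but the median was 0.05 and KRT7 differed by -0.84. Of 19 junction genes 6 were at least 2-fold higher and 6 were lower by any amount. Over the 15 that were not dim the median was 0.38, within -0.11 to 0.41 in the other lines. KRT19, a keratin of simple epithelium, had 4.16 in A549 3D and 0.89 in A549 2D (3.27; other lines -0.82 to 0.54; adjusted p = 0.0344). At least 1 other array was far above A549 3D for KRT19 (8.18). KRT8 (2.23) and KRT18 (1.29), keratins of the same epithelia, and JUP, plakoglobin (2.35; adjusted p = 0.0608), were higher in A549 3D and not called. Of 24 basement membrane and integrin genes, 10 were at least 2-fold higher and 0 lower, against 0 to 4 in the other lines. They include LAMB3, a chain of laminin-332, at 3.64 and 0.55 (3.09; adjusted p = 0.0994), and the fibronectin and vitronectin receptor chains ITGAV (1.27), ITGB5 (1.47) and ITGA5 (1.43). Of the collagen IV chains, COL4A1 differed by -0.02 and COL4A2 by 0.08 (0.67 and 0.21 on their other probe sets), while COL4A6 differed by 1.21 (1.15 and 1.60 on others) and was not called.

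**Figure D4:**
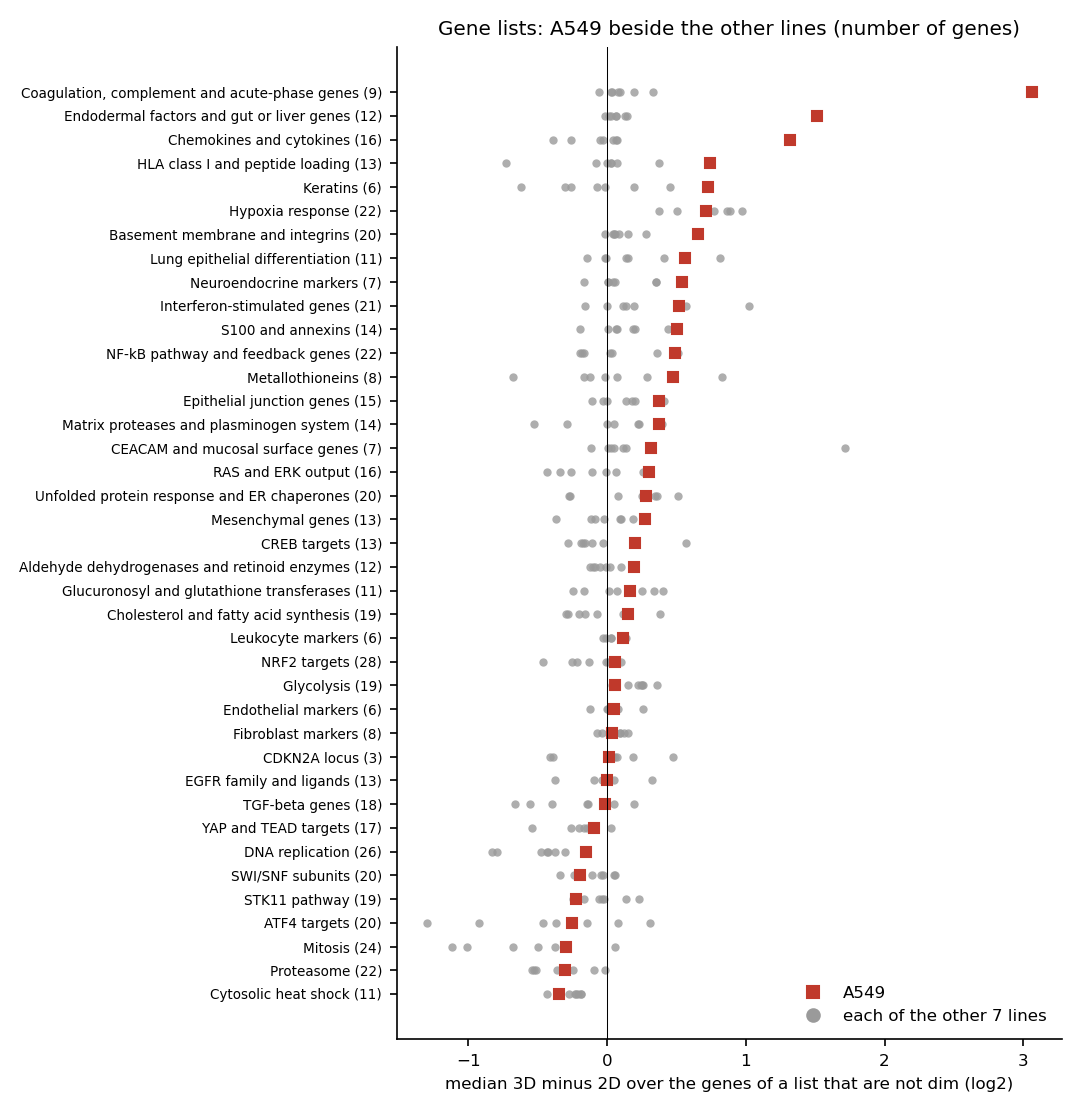
Median 3D minus 2D difference (log2, x axis) of each gene list over its members that are not dim (number in brackets), with A549 as squares and each other line as a dot. A549 lies beyond every other line for coagulation, complement and acute-phase genes at 3.06.

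Among the 37 genes called lower in A549 with all genes fitted were FOXF1 and BMPER. FOXF1, a factor of lung mesenchyme, had -0.98 in A549 3D and 2.14 in A549 2D (-3.12; adjusted p = 0.00225), and BMPER, a BMP regulator, -0.69 and 1.99 (-2.69; adjusted p = 0.0101).

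A549 also took part in the response that the other lines shared. Without A549, 178 genes (1.29%) rose and 258 (1.87%) fell in 3D over the other 7 lines, and 368 of these 436 genes (84.4%) had the same sign in A549, against 63.5% of all genes. These counts depended on H23 and on the pairing by line: without H23 4 genes rose and 3 fell, and without the pairing 0 and 1. The median difference of the 178 genes was 0.32 in A549 and 0.64 in the other lines, and that of the 258 genes -0.42 in A549 and -0.64 in the others. Across all genes not dim, the A549 difference correlated with the mean of the others at r = 0.335, and by line it was closest to H358 (0.307) and H460 (0.250) and farthest from H1437 (0.0976). Both sides use values scaled to medians that include all 16 arrays.

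Hypoxia genes, which low oxygen induces through HIF, had a median of 0.71 in A549 over the 22 that were not dim, within 0.37 to 0.97 in the other lines, and 5 of 24 were at least 2-fold higher (4 to 11 elsewhere). With the mean of all probe sets of a gene the A549 median was 0.43. EGLN3, an oxygen-sensing hydroxylase, differed by 2.39, NDRG1 by 1.58 and the angiogenic factor VEGFA by 1.29. FAM162A, a mitochondrial protein, had -0.17 on its representative, against 1.18 to 3.47 in the other lines, but 3 other probe sets gave 0.59 to 0.71. PGK1, a glycolytic kinase, likewise had 0.01 with 4 of 5 other probe sets at 0.49 to 0.92 and 1 at -0.49. MXI1, a MAX partner, had -0.07 against 0.28 to 1.47, and ARRDC4, an arrestin family member induced by glucose, 0.45 against 1.22 to 4.15 (adjusted p = 0.713). A549 was the lowest line for each of these 4 representatives, and none was called.

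Proliferation genes moved little in A549, and mostly downward. The median of 26 DNA replication genes was -0.15 in A549, nearer 0 than in any other line (-0.83 to -0.31), and that of 24 mitosis genes was -0.29 (-1.12 to 0.06 elsewhere). No member of either list reached 2-fold in A549. In A549 3D 19 of the 26 and 22 of the 24 were lower than in 2D, as were 8194 of all 19752 genes. GNL3L, a nucleolar GTPase, differed by -2.65 in A549 and by -2.81 to -0.71 in the other lines, with its other probe sets at -3.07, -1.03 and -0.20.

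Markers of leukocytes and endothelium moved little in A549. Of 12 leukocyte markers 0 and of 12 endothelial markers 0 were at least 2-fold higher in A549 3D, and the medians were 0.06 and 0.04, with PTPRC, the defining leukocyte surface gene, at 0.11 and -0.01 in A549 3D and 2D and PECAM1 of endothelium at -0.04 and -0.16. Of 12 fibroblast markers 2 were higher and 1 lower by at least 2-fold, with COL1A1 at 1.11 and -0.11 against up to 3.26 on the other arrays. Its other probe sets parted, with 3D minus 2D differences of 2.67, 2.97, -0.16 and -0.23 in A549. The part of these markers in the results was not tested. The 18S ribosomal probe sets averaged -0.20 in A549 3D and 0.78 in A549 2D and were lower in 3D in 8 of 8 lines, and their part in the shared response was not tested.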

How the data were processed

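Total RNA, 200 ng per array, with a biotin label, was measured on Affymetrix U133 Plus 2.0 arrays, per the labels' protocols. The values deposited by the authors are log2 ratios for 54675 probe sets. In 63.5% of them the linear median over the 16 arrays is 1 (log2 within 0.001 of 0), so the reference was the probe set's own median, and no median lies above it. For the rest, dim ones, it may be a fixed minimum. The summary software and the scaling between arrays were not given in the sources used here. Levels of different genes cannot be compared. Arrays have no read depth, and it is their number that limits precision.

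Genes were named from the platform annotation, brought up to date through RefSeq (GRCh38.p14): 41097 probe sets had 1 gene, 1801 several and 11777 none. The probe set with the highest mean represented each of 19752 genes (10521 had several), of which 5973 were dim and 13779 were not. Tests used limma 3.58.1 in R 4.3.3 (lmFit, eBayes with trend) as described in the results, with each line's 3D minus 2D difference as the unit of the response. Pairing by line rests on the cell line in the labels. Replicate numbers follow the order of deposition. p-values measure the spread between lines. For a dim gene that was low on every other array, this is a spread of values near background. ANXA13 is such a gene, with other arrays from -1.20 to -0.92 and 3D minus 2D differences of other lines from -0.11 to 0.17. A small p-value there does not measure how lines that express the gene vary. On simulated data built on the 3D minus 2D comparison of 13779 genes, 58% of genes set 2 (log2) apart in A549 and 90% of those set 3 apart were recovered, and for the line means of 19752 genes 26% and 48%.

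The text names part of the genes that a rule chose: the 15 highest and lowest by each measure, up to 6 dim genes by size and up to 4 members per gene list. The genes and lists were chosen with earlier results of these data known. A gene list is not reported here. COL1A1, PTPRC and PECAM1 were named as markers. Alternatives were other ways to represent a gene, quantile scaling, filters, a floor and leaving out each line.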

Additional observations from a re-analysis of the deposited data

Results flagged for a closer look

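For 41 named genes, the 3D minus 2D difference of A549 parted from that of the other 7 lines in limma's test of the difference itself (adjusted p under 0.05). Genes dim over the series were taken from the fit over all genes, which called 0.997% of genes higher. The others were taken from the fit without dim genes, which called 0.239% higher. Many of these genes were named for the size of their A549 difference, so their number is not a result about them. The values are A549 minus the mean of the other lines (log2). Among secreted plasma and acute-phase genes they were 5.71 for FGA, 6.03 for FGB, 5.62 for FGG, 4.29 for APOH, 4.24 for FGL1, 4.47 for CFI, 2.66 for SERPINA5 and 3.93 for LCN2. Among gut and mucosal genes they were 7.51 for DMBT1, 4.09 for MUC5AC, 4.91 for MUC13, 5.44 for CDH17, 3.72 for TFF1, 2.71 for FOXA3, 2.11 for KRT20, 5.63 for ANXA13, 9.09 for TCN1, 4.70 for GPX2 and 4.25 for CLDN2. Among inflammatory and antigen genes they were 2.07 for IL1B, 4.61 for IL33, 5.10 for TNFSF15, 3.75 for S100A8, 4.83 for S100A9, 3.93 for PSMB8 and 3.92 for HLA-DMB. Transporters and channels gave 5.64 for AQP3, 5.86 for FXYD2, 3.24 for TRPA1, 3.36 for SLC7A2 and 3.80 for SLC7A7. The remaining genes were CST1 at 7.05, CST4 at 2.85, PRSS3 at 3.82, F3 at 3.39 (tissue factor), RNF43 at 3.48, KRT19 at 3.43, ADH1C at 5.05 and GSTA1 at 3.99 on the higher side, and FOXF1 at -2.95 and BMPER at -2.91 on the lower.

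Among the other 7 lines, 20 of 130 sets of line values had 1 line far from the rest by Dixon's test, where chance gives about 1 in 20. H358 stood apart for the median of the CEACAM and mucosal genes at 1.72, for CEACAM6 at 4.97, and for heat shock genes (-0.43), CFI (-0.51), LAMB3 (1.15) and ITGAV (0.75). H460 stood apart for FGA (2.08), FGG (1.77), KRT20 (-0.59), TRPA1 (0.75) and BMPER (1.15). H1437 stood apart for CREB targets (0.57), FGL1 (-0.83), SERPINA1 (1.60), S100A8 (0.71) and GSTA1 (-0.51). H661 stood apart for HLA class I genes (-0.73), ITGA5 (-1.61) and SESN1 (2.06), and H23 for CST1 (0.68). These values enter the error against which A549 was tested.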

How the results depend on the processing

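With dim genes left out, 0 genes were called higher and 0 lower in A549 than in the other lines, and with ratios under -3 set to -3, 0 were lower, while quantile normalisation, the 2D arrays alone and the 3D arrays alone each gave 3 lower. Of the response, A549 against the other lines, no filter gave 197 higher and 37 lower genes, eBayes without trend 55 and 3, and 2 were lower with the mean of all probe sets and 8 after quantile normalisation. Over the other 7 lines, genes higher in 3D numbered 92 with the mean of all probe sets and 25 without a filter, and genes lower 162 with only probe sets without suffix s or x and 47 without a filter. Pairing by line carries these calls: with no replicate block 0 were higher and 1 lower. Genes at least 2-fold lower in A549 3D numbered 126 with the mean of all probe sets and 622 after quantile normalisation, which put 48.3% of the genes past 2-fold on the higher side, against 66.6% as deposited and 78.8% with the mean of all probe sets. The causes were not tested.

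Leaving out each other line in turn gave 81 to 125 genes higher and 1 to 5 lower in A549 (5 without H460), and 18 (without A427) to 34 higher and 0 to 1 lower (without H460) in the response of A549 against the others. Over the remaining lines 4 (without H23) to 207 (without A427) were higher in 3D and 3 (without H23) to 339 (without A427) lower, and the share with the same sign in A549 ran from 77.8% to 88.6%. The A549 minus other lines differences of CPS1 (0.079, 3D arrays only), of TAGLN (-0.18), KRT7 (-0.037) and APOH (-0.02) with only probe sets without suffix s or x, and of DMBT1 (-0.041), ADH1C (-0.051) and SERPINA5 (-0.13) with the 2D arrays only changed sign. So did the response differences of SERPINA1 (-0.11) and S100A8 (-0.052) with only probe sets without suffix s or x, where another probe set stands for the gene. Of 967 identity values and 1321 response differences of named genes under the alternatives, 905 and 1235 kept their direction and side of the threshold. With 1 A549 array per culture, an error of either array cannot be told from the culture.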
